A study of Mus musculus with 6 samples.

Results

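Type I interferon-stimulated genes, which cells switch on when they sense interferon, were followed in the marrow of SCID/Bg mice with and without NOX-A12. The group was a list of 34 genes named by symbol for their known response to type I interferon, drawn up with earlier results of these data known. Of these, 32 had a probe set annotated to them alone, while Isg15 and Ifi44 did not, so their expression was not analysed here. Each gene is given by its probe set with the highest mean over the 6 arrays. In all, 18193 genes were measured in this way.

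Affymetrix expression arrays measured total RNA of unsorted bone marrow from 3 untreated and 3 NOX-A12-treated mice, 1 mouse per array. All 6 mice were of the SCID/Bg strain, whose scid mutation blocks the maturation of T and B lymphocytes and whose beige mutation impairs natural killer cells, so the controls carry these defects too. NOX-A12 is a mirror-image RNA oligonucleotide that binds and blocks the chemokine CXCL12, which holds blood-forming cells in the marrow. Age, sex, dose and schedule were not stated in the labels. In unsorted marrow, fewer cells of a type and less RNA per cell cannot be told apart.

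Type I interferons are secreted when cells detect foreign or misplaced nucleic acid. They bind a receptor made of IFNAR1 and IFNAR2, whose kinases activate transcription factors such as STAT2. STAT2 joins IRF9 in a complex that binds the interferon-stimulated response element in the promoters of antiviral genes. In uninfected tissue a low tonic signal keeps many of these genes expressed, and in bone marrow interferon acts on blood-forming cells as well as on myeloid cells.

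Most of the genes had lower mean levels in treated marrow, by amounts that no single gene carried past the test. The log2 change, treated minus untreated with 16 added to each intensity before the logarithm, was below 0 for 26 of 32 genes, where 52.8% of all genes lay below 0. Its median was -0.22, against -0.01 over all genes, and the middle of the list ran from -0.33 to -0.05 (lower and upper quartile). The extremes were Rtp4 at -0.74 and Stat2 at 0.09. Of the 23 other probe sets annotated to these genes, 12 had a change below 0, close to the share over all genes. At an unadjusted p under 0.05 in the limma fit, 11 of the 32 were lower and 0 were higher, beside 3.53% of all genes lower and 1.78% higher. In 8 of the 32 every treated mouse lay below every untreated mouse and in 0 above, beside 6.68% and 3.92% of all genes. After Benjamini-Hochberg adjustment over the 45037 probe sets, limma called 0% of them, and the adjusted p of the 32 genes ran from 0.926 to 1.00. The count of 11 was 6 without untreated mouse 2 and 5 without NOX-A12 mouse 2, beside 3.24% and 2.20% of all genes, and the median was -0.13 without untreated mouse 1. The count of 8 was 14 without untreated mouse 3 and 15 without NOX-A12 mouse 3, where fewer mice were compared and 11.2% and 12.7% of all genes did not overlap.

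**Figure D1:**
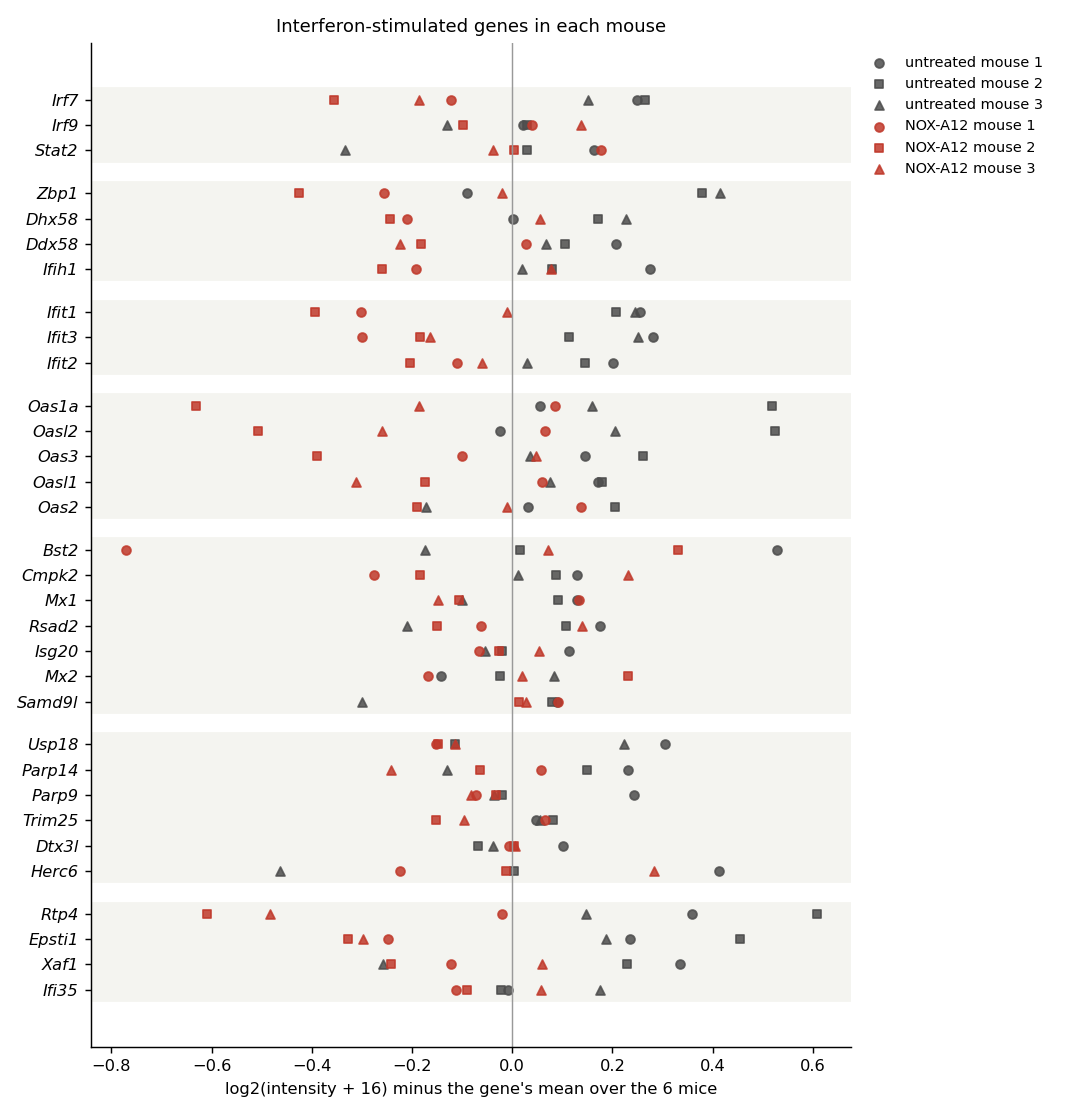
Level of each of the 32 genes in each mouse, as log2(intensity + 16) minus that gene's mean over the 6 mice; grey marks are untreated and red marks NOX-A12, with marker shape for mouse 1, 2 and 3, and shaded bands group genes by role in the order of the text. For Irf7, Epsti1, Rtp4 and the 3 Ifit genes all red marks lie left of all grey marks, while for Rsad2, Isg20 and Dtx3l the colours are mixed.

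One array stood apart from the others. Untreated mouse 3 correlated with the other arrays at r from 0.982 to 0.985 across probe sets, against 0.991 to 0.994 among the other 5, and 851 of its probe sets differed more than 2-fold from the median of the rest, where each of the other arrays had 44 to 67. Among the brightest probe sets of the 32 genes this mouse was the lowest of the 6 for 6 of 32, and among their 23 other probe sets for 9. Without it the median change of the list was -0.25, against -0.0048 over all genes, and 30 of 32 genes were lower. Median intensity was 44.8 to 45.6 over the 6 arrays. As a check of the labelled tissue, the neutrophil genes S100a8 and S100a9 read 16576 ± 189 and 15115 ± 237 in untreated marrow (SD, n = 3). Of 5 T-cell genes measured in the same mice, Cd3e and Cd4 read 9.63 ± 5.55 and 3.98 ± 1.24, and Cd8a 40.1 ± 6.27. Cd3d read 1319 ± 205, and Cd3g 43.5, 30.0 and 61.8 in mice 1, 2 and 3. Only Cd3d lay well above the arrays' median intensity in every mouse, and the presence of T cells was not tested. In what follows, values of 3 mice are probe-set intensities in the order mouse 1, 2 and 3, log2 changes carry their standard error (SE) from the limma fit, and intensities of different genes are not compared, since probe sets differ in brightness.

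The promoters below are shown because their genes had the smallest unadjusted p among those whose start region holds the core of the interferon-stimulated response element, GAAANNGAAA. It was searched on both strands of the RefSeq windows of build GRCm38.p6, from 250 bases before to 50 after each start, and matches were allowed to overlap. Of 25 listed genes with a window, 10 had a match, as did 3.99% of all 27025 genes in the table and 3.44% of its windows, all of the same length. The stretches run 5′ to 3′ on the gene's strand, with 25 bases on each side of the matches where the window allowed, and capitals mark the matches.
Ifit3, chr19:34583348-34583441, plus strand: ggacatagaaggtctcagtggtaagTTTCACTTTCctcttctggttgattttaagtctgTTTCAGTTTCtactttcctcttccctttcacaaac
Ifit1, chr19:34640760-34640838, plus strand: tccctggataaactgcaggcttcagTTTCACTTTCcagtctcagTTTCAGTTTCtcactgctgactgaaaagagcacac
Ddx58, chr4:40239789-40239848, minus strand: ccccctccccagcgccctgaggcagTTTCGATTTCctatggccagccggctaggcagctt
Oas1a, chr5:120907505-120907570, minus strand: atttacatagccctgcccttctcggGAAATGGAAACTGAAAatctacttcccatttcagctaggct
Oas3, chr5:120777700-120777759, minus strand: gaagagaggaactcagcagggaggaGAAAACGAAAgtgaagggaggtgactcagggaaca
Ifih1, chr2:62646206-62646248, minus strand: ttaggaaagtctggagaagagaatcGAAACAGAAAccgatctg
Ifit1 and Ifit3 each hold the core in 2 places on the opposite strand, at 104 and 85 bases before the start in Ifit1 and at 156 and 122 in Ifit3. In Oas1a the 2 copies overlap. The other listed genes with a match were Stat2, Rsad2, Bst2 and the unmeasured Isg15, which held it in 3 overlapping places. Measured genes with a match had a median log2 change of -0.25 (9 genes) and those with a window but no match -0.14 (14 genes). At an unadjusted p under 0.05 in the limma fit, 4 of the 9 and 5 of the 14 were lower, beside 3.53% of all genes. Genes with and without a match were not tested against each other. Irf7 and Epsti1 had windows without these exact letters.

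The 3 transcription factors of the list did not share one pattern. Irf7, which is itself induced by interferon and then amplifies interferon production, had intensities of 819, 829 and 764 in untreated mice and 630.0, 534 and 602 in treated mice. Every treated mouse was below every untreated mouse, and the log2 change was -0.44 ± 0.10 (95% interval -0.68 to -0.21). Irf9, the DNA-binding partner of STAT2, read 629, 632 and 564 untreated and 637, 577 and 682 treated. Its groups overlapped, with untreated mouse 3 the lowest and NOX-A12 mouse 3 the highest, and the change was 0.05 ± 0.10 (-0.19 to 0.30). Stat2 was measured at 96.4, 86.5 and 63.7 untreated against 97.5, 84.6 and 81.8 treated, a change of 0.09 ± 0.15 (-0.25 to 0.44), and 0.07 ± 0.17 at its other probe set. Untreated mouse 3 was again the lowest at both Stat2 probe sets, and without this mouse the change was -0.05.

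All 4 sensors of nucleic acid were lower on average, 2 of them at an unadjusted p under 0.05 in the limma fit, beside 3.53% of all genes. Zbp1, which binds left-handed double helices and can start necroptosis, stood at 77.2, 113 and 116 in untreated and 67.2, 57.9 and 81.9 in treated marrow, a change of -0.47 ± 0.17. The groups overlapped through untreated mouse 1, and a dimmer probe set gave -0.31 ± 0.22. Ddx58, which encodes the RNA helicase RIG-I that recognises RNA with a triphosphate end, had 570.1, 530.3 and 516 in untreated and 501, 432 and 419 in treated mice. No treated mouse reached the lowest untreated mouse, and the change was -0.25 ± 0.10. Its 2 dimmer probe sets went opposite ways, at -0.21 ± 0.10, again without overlap, and 0.15 ± 0.20, and the mean of its probe sets gave -0.10. Dhx58, whose product LGP2 tunes signalling by the other RNA helicases, gave 128, 146 and 153 against 109, 106 and 134, or -0.27 ± 0.12. NOX-A12 mouse 3 lay within the untreated range, and the dim probe sets of this gene gave -0.22 ± 0.16 and 0.19 ± 0.14, for a mean of -0.10 over the 3. Ifih1, encoding the long-RNA sensor MDA5, averaged 633 ± 61.3 in untreated and 531 ± 69.7 in treated marrow (SD, n = 3), with a change of -0.25 ± 0.13 and overlap through NOX-A12 mouse 3.

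Among the 3 IFIT genes, the product of Ifit1 binds viral RNA that lacks the host's cap marks and blocks its translation. In all 3 genes every treated mouse lay below every untreated mouse, as in 6.68% of all genes. Ifit1 was tight in untreated marrow, at 265, 256 and 263, and lay at 175, 163 and 218 in treated marrow. The change was -0.47 ± 0.12, with NOX-A12 mouse 3 the closest of the treated mice to the untreated level. Ifit3 had 97.4, 84.9 and 95.01 against 59.8, 66.2 and 67.3, a change of -0.43 ± 0.10. Ifit2 read 450.2, 432 and 398 untreated against 359.5, 336 and 373 treated, and its change of -0.25 ± 0.10 was the smallest of the family. The 3 genes lie on chromosome 19, with no coding gene between Ifit2 and Ifit3 and 3 coding genes between Ifit3 and Ifit1 in the RefSeq table, and the promoters of Ifit1 and Ifit3 are among those printed above. Each had 1 probe set of its own.

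Several members of the OAS family make oligoadenylates that activate RNase L, which degrades RNA. All 5 listed members were lower on average and 3 of them at an unadjusted p under 0.05 in the limma fit, beside 3.53% of all genes. Only in Oasl1 did the groups not overlap, with treated mice below, beside 6.68% of all genes. Oas1a showed the widest span, from 510.3, 709.8 and 549 in untreated to 521, 311 and 429 in treated mice. Its change was -0.49 ± 0.20; untreated mouse 2 was high and NOX-A12 mouse 2 low, while NOX-A12 mouse 1 lay above untreated mouse 1. Without NOX-A12 mouse 2 the change was -0.30 for Oas1a and -0.17 for Oas3. Oas1a has close paralogs, and whether its probe set also takes up their transcripts was not tested. Oasl2, an OAS-like gene, had low intensities of 36.0, 60.1 and 45.0 untreated against 39.3, 21.2 and 28.1 treated, a change of -0.47 ± 0.19, with the same mice at the extremes. Oasl1, whose product restrains translation of Irf7, gave 189, 190.5 and 176 untreated against 174, 146 and 131 treated, or -0.28 ± 0.12. NOX-A12 mouse 1 came within a few units of the lowest untreated mouse. Oas3 averaged 198 ± 16.7 against 159.7 ± 26.5 (SD, n = 3), or -0.30 ± 0.13, and Oas2 344 ± 46.6 against 332 ± 39.3, or -0.04 ± 0.13 (-0.36 to 0.27). Oas2 and Oas3 are direct neighbours on chromosome 5, as are Oasl2 and Oasl1.

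The 7 other antiviral effectors had a median change of -0.05, with 5 lower and 2 higher. At an unadjusted p under 0.05 in the limma fit 0 of them were lower or higher, beside 3.53% and 1.78% of all genes. The groups overlapped in all 7, where 6.68% of all genes had treated mice lower without overlap and 3.92% higher. Rsad2 encodes viperin, which converts CTP into a chain terminator of viral RNA synthesis. It had 6719, 6407 and 5136 in untreated and 5695, 5356 and 6554 in treated marrow, a change of -0.05 ± 0.14 (-0.37 to 0.27). Untreated mouse 3 was the lowest of the 6 at all 3 of its probe sets. The dimmest read 2295, 1846 and 417 against 1509, 1512 and 1922, with untreated mouse 3 far below the other 5, and gave 0.43 ± 0.58, while the middle one gave 0.05 ± 0.19. Cmpk2, the nucleotide kinase gene next to Rsad2 on chromosome 12, averaged 578 ± 24.5 and 525 ± 105 (SD, n = 3), or -0.15 ± 0.14, and -0.15 ± 0.20 at its other probe set. NOX-A12 mouse 3 was the highest of the 6 at the brighter one, where the change was -0.31 without it and -0.05 without NOX-A12 mouse 1.

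Bst2, which tethers budding virions to the cell surface, varied most from mouse to mouse. It had 138, 91.7 and 78.4 in untreated and 46.4, 118 and 96.0 in treated mice, and its change of -0.25 ± 0.30 was smaller than its SE. Isg20, an exonuclease of single-stranded RNA, averaged 4323 ± 272 and 4244 ± 181 (SD, n = 3). Its change was -0.03 ± 0.09, with a 95% interval of -0.25 to 0.19. Samd9l, an inhibitor of translation, had 2389, 2373 and 1820.3 untreated against 2394, 2268 and 2288 treated, or 0.09 ± 0.13. Untreated mouse 3 alone was low, and without it the change was -0.04. Mx1, a GTPase that blocks influenza virus replication, averaged 77.1 ± 7.76 and 72.2 ± 9.53, or -0.08 ± 0.12, and -0.17 to -0.03 with each mouse left out. Mx2 was near the floor of the table, at 1.29, 2.78 and 4.23 untreated against 1.00, 6.40 and 3.35 treated, with a change of 0.06 ± 0.13, and the scale with 16 added leaves little room for change at this level. The RefSeq table lists both Mx genes of the C57BL/6J reference as transcribed pseudogenes.

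ISG15 is a ubiquitin-like tag, induced by interferon, that enzymes attach to proteins, and some of the genes write or erase it. Usp18, which removes ISG15 and blocks signalling at the interferon receptor, had a mean of 445 ± 68.1 in untreated and 362 ± 5.59 in treated marrow (SD, n = 3), a change of -0.28 ± 0.13 (-0.57 to 0.02). The 3 treated mice lay at 358, 359 and 368, and untreated mouse 2 lay among them. Herc6, the ligase that attaches ISG15 in mice, read 535, 399 and 284 untreated and 338, 394 and 488 treated. The change was 0.03 ± 0.23 (-0.51 to 0.58), and its 3 other probe sets gave -0.09 ± 0.14, 0.07 ± 0.20 and 0.16 ± 0.37. Untreated mouse 3 was the lowest of the 6 at 3 of the 4 Herc6 probe sets and untreated mouse 1 the highest at all 4. Trim25, a ubiquitin ligase that activates RIG-I, had 1276, 1306 and 1283 untreated against 1291, 1109 and 1152 treated, or -0.12 ± 0.10, but 0.01 ± 0.12 and 0.10 ± 0.26 at its other probe sets.

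Dtx3l and Parp9 form a complex that joins ubiquitin and ADP-ribose chemistry, and Parp14 is a related ADP-ribose transferase. Dtx3l was the most even of the 32 genes, at 1035, 919 and 938 untreated against 959.5, 967 and 967 treated, a change of 0.00 ± 0.09 (-0.21 to 0.21) and -0.07 ± 0.10 at its other probe set. Parp9 averaged 474 ± 55.2 and 432 ± 8.14 (SD, n = 3), or -0.12 ± 0.11, and untreated mouse 1 alone was high; without it the change was -0.03. Parp14 averaged 543 ± 70.8 and 481 ± 51.3, or -0.17 ± 0.13, and -0.27 to -0.09 with each mouse left out. Its dimmer probe set read 51.9, 48.6 and 45.8 against 36.7, 39.4 and 40.9, without overlap, or -0.24 ± 0.09. These 3 genes follow one another on chromosome 16 with no coding gene between them in the RefSeq table.

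The remaining 4 genes included Rtp4 and Epsti1, with the largest changes of the list. Rtp4, a receptor transporter protein induced by interferon, had 927, 1104 and 798 in untreated and 709, 466 and 509.9 in treated mice. Its change of -0.74 ± 0.19 (-1.18 to -0.31) spans a wide interval, and its dim second probe set gave -0.14 ± 0.15, for a mean of -0.44. Epsti1, first described in epithelial and stromal contact and induced in macrophages, had 331, 387 and 319 untreated against 232, 218 and 223 treated. The 3 treated mice lay close together and well below the untreated mice, with a change of -0.58 ± 0.10 (-0.83 to -0.34) and the smallest unadjusted p of the list. Its dimmer probe sets overlapped between groups and gave -0.23 ± 0.27, -0.17 ± 0.29 and 0.13 ± 0.17, the last near the floor; the mean of all 4 was -0.21. Xaf1, which counters the apoptosis inhibitor XIAP, read 442, 409.9 and 288 untreated against 317, 291 and 362 treated, or -0.20 ± 0.17, and 0.08 ± 0.18 at another probe set. Without untreated mouse 3 the change of Xaf1 was -0.38, and without untreated mouse 1 it was -0.09. Ifi35 averaged 1371 ± 109 and 1279.8 ± 85.0 (SD, n = 3), or -0.10 ± 0.10, with the same sign at its other probe sets (-0.20 ± 0.11 and -0.07 ± 0.11). Over the 14 genes with several probe sets, 6 had the same sign throughout and 8 did not. Of the 23 other probe sets 12 were lower, beside 52.8% of all genes.

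**Figure D2:**
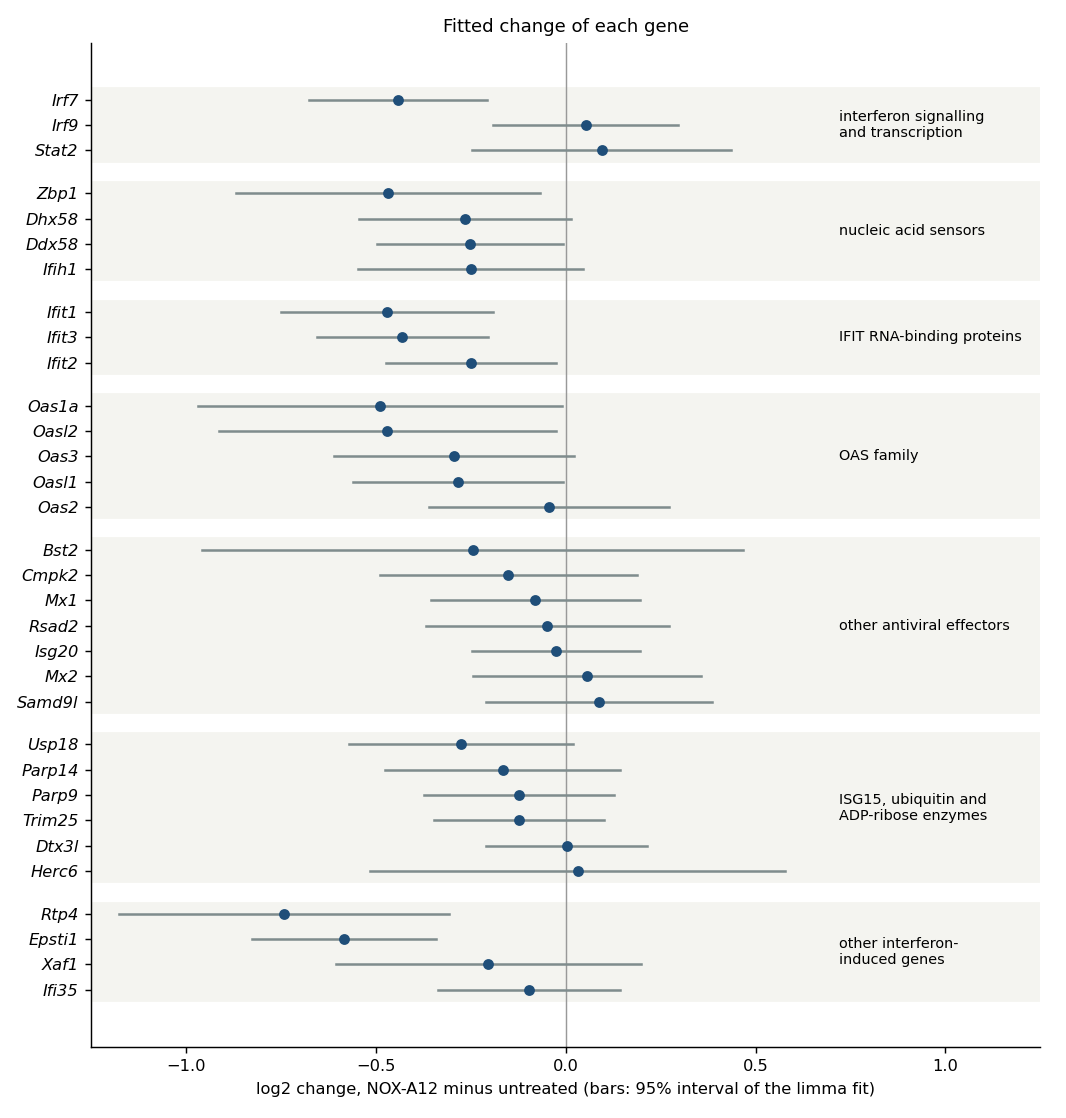
Log2 change of each of the 32 genes (points) with its 95% interval from the limma fit (bars), NOX-A12 minus untreated, with genes grouped by role. The interval lies wholly below 0 for 11 genes, from Rtp4 at -0.74 to Ifit2 at -0.25, and spans 0 for the others.

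The mice within a group were not alike. Averaged over the 32 genes, the log2 level relative to each gene's 6-mouse mean was 0.16, 0.15 and 0.01 in untreated mice 1, 2 and 3, and -0.09, -0.18 and -0.05 in treated mice 1, 2 and 3. The groups did not overlap on this mean, but untreated mouse 3 and NOX-A12 mouse 3 were only a little apart. Untreated mouse 1 was the highest of the 6 for 14 genes and the lowest for 0, whereas NOX-A12 mouse 2 was the lowest for 13 and the highest for 1. The roles differed in which mice led. For the OAS genes untreated mouse 2 (0.34) and NOX-A12 mouse 2 (-0.38) were the extremes, and NOX-A12 mouse 1 (0.05) was just below untreated mouse 3 (0.06). For the IFIT genes all untreated mice (0.16 to 0.25) were above all treated mice (-0.26 to -0.08), as they were for the sensors (0.10 to 0.18 and -0.28 to -0.03). For the other antiviral effectors the lowest mice were NOX-A12 mouse 1 (-0.16) and untreated mouse 3 (-0.11).

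**Figure D3:**
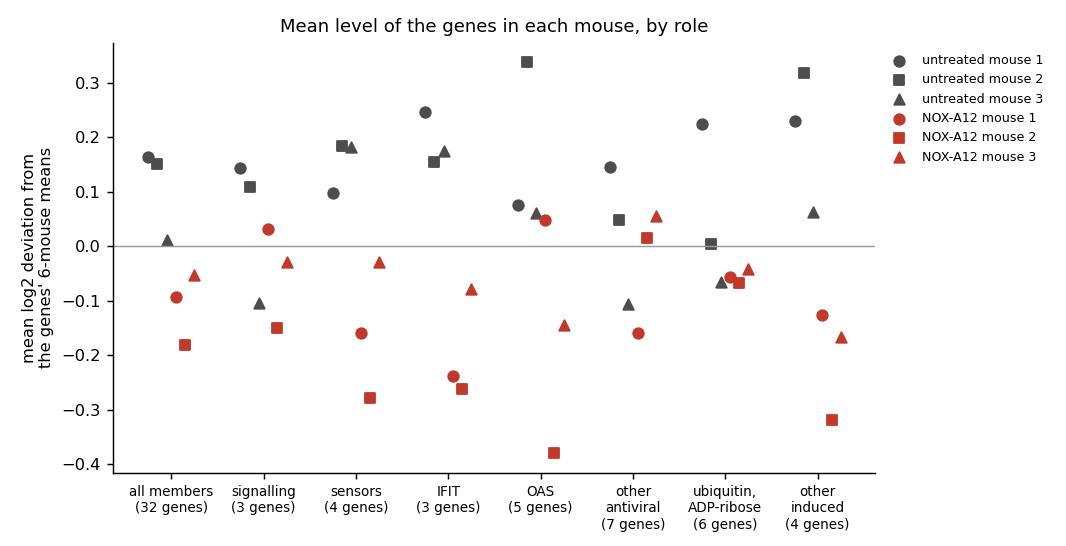
Mean log2 level of the genes in each mouse relative to the genes' 6-mouse means, for all 32 genes and by role; grey marks are untreated and red NOX-A12, with shape for mouse number. All members, sensors, IFIT, OAS and the last group show every untreated mouse above every treated mouse; for all members the closest pair is untreated mouse 3 (0.01) and NOX-A12 mouse 3 (-0.05), and the other 3 groups overlap.

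The rest of the pathway was described from lists of textbook genes, to set the 32 genes beside the steps that come before them. Of 18 listed interferon genes 9 were measured, 7 lower and 2 higher, with a median of -0.08, where 52.8% of all genes lay below 0. At an unadjusted p under 0.05 in the limma fit 0 were lower and 1 was higher, beside 3.53% and 1.78% of all genes. The higher gene was Ifnz, interferon zeta, at 138, 151 and 102 in untreated and 182, 212 and 174 in treated mice, or 0.50 ± 0.15. Every treated mouse lay above every untreated mouse, as in 3.92% of all genes. Interferon genes include near-identical copies, so their probe sets are uncertain. The kinase gene Jak1 and the receptor chain Ifnar1 gave 0.12 ± 0.17 and 0.04 ± 0.10, and the 4 measured receptor and kinase genes had a median of 0.04 with 0 at an unadjusted p under 0.05 in the limma fit. Among 6 inhibitors of the pathway (median 0.06), the phosphatase gene Ptpn6 gave 0.37 ± 0.15, without overlap, and was the only one under that limit. The 13 sensing adaptors and kinases had a median of 0.03, 4 of them lower, and 0 under that limit in the limma fit; the smallest p values were those of Traf6 (-0.21 ± 0.10) and Irf3 (0.10 ± 0.10).

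Other interferon-induced genes were lower more often than higher. Outside the 32, 31 such genes were measured. Of these 24 lay below 0, the median change was -0.13, and 4 were lower at an unadjusted p under 0.05 in the limma fit. Over all genes, 52.8% lay below 0 and 3.53% were lower at that limit. Ifi27l2a had 1446, 1493 and 1505 in untreated and 1160.4, 788 and 1003 in treated mice, or -0.60 ± 0.14. Ifi27 gave -0.34 ± 0.12, and Lgals3bp, a secreted glycoprotein gene, gave -0.27 ± 0.10. The fourth was Gbp2, which belongs to the guanylate-binding GTPases that attack the vacuoles of intracellular microbes. Of 10 measured GBP and IRG GTPase genes 9 lay below 0, and 6 of them at an unadjusted p under 0.05 (list median -0.28): Gbp6 (-0.67 ± 0.09), Iigp1 (-0.49 ± 0.12), Gbp2 (-0.43 ± 0.09), Gbp8 (-0.38 ± 0.11), Gbp7 (-0.31 ± 0.12) and Igtp (-0.26 ± 0.09). Many of these genes also respond to interferon gamma. In the interferon gamma list, 6 of 12 genes were lower, and the chemokine genes Cxcl9 and Cxcl10 were under that limit. Cxcl9 had 44.0, 63.8 and 135 against 21.6, 24.3 and 37.7, or -1.05 ± 0.33, with untreated mouse 3 the highest, and Cxcl10 33.6, 35.2 and 40.7 against 22.5, 30.1 and 25.1, or -0.33 ± 0.11. The list's median was 0.00. No list was tested against another.

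**Figure D4:**
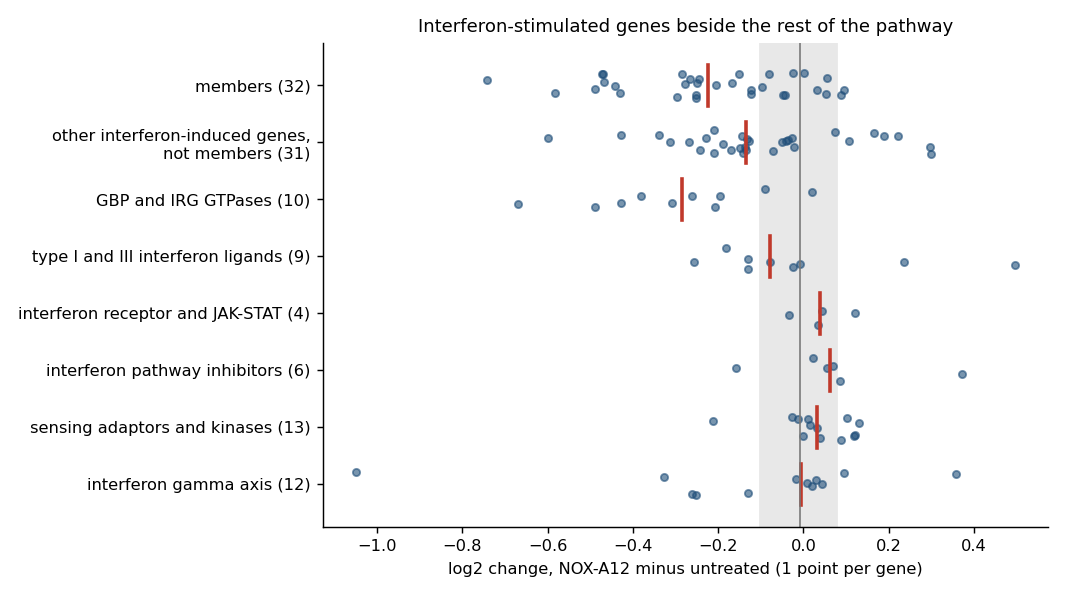
Log2 change of every measured gene (1 point each) for the 32 genes and 7 other lists of the pathway, with the number measured in brackets, the list's median as a red bar, and the quartile range (-0.10 to 0.08) and median of all 18193 genes as a grey band and line. The medians of the 32 genes (-0.22), the other interferon-induced genes (-0.13) and the GTPases (-0.28) lie left of the band, and those of ligands, receptor, inhibitors, adaptors and the interferon gamma list lie within it. Several ligand probe sets were dim, which leaves their changes little room on this scale.

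Markers of marrow cell types are given beside these values. Sums are of probe-set intensities, lowest to highest mouse, so the brightest probe sets weigh most. They did not overlap between groups for plasmacytoid dendritic, B-lineage and T-cell markers. Of all single genes, 6.68% had treated mice lower without overlap and 3.92% higher. Of 9 measured markers of plasmacytoid dendritic cells, which make much of the type I interferon in blood and marrow, 6 were lower. Ccr9 (-0.39 ± 0.11), Pacsin1 (-0.39 ± 0.12) and Cd209d (-0.30 ± 0.12) were lower at an unadjusted p under 0.05 in the limma fit, as were 3.53% of all genes. Klk1 (0.04 ± 0.13), Cox6a2 (0.03 ± 0.10) and Ly6d (0.05 ± 0.16) were the 3 higher, and Siglech gave -0.20 ± 0.24 with overlap. The sums were 2435 to 2583 in untreated and 2185 to 2304 in treated mice. Of 10 resident macrophage markers 9 were lower, and Siglec1 (-0.48 ± 0.12), itself induced by interferon, and Mertk (-0.45 ± 0.14) were under that limit; the sums overlapped, at 7145 to 8529 and 6794 to 7639. Of 6 classical monocyte markers 4 were higher, and only F13a1 (0.52 ± 0.19) was under that limit. Their sums overlapped, at 10250, 8762 and 6636 in untreated mice 1, 2 and 3 and 9474 to 11370 in treated mice, and the lowest was untreated mouse 3, the array that stood apart.

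All 7 B-lineage markers were lower, where 52.8% of all genes lay below 0. Cd79a (-0.53 ± 0.15), Vpreb1 (-0.49 ± 0.16) and Igll1 (-0.57 ± 0.16) were lower at an unadjusted p under 0.05 in the limma fit, as were 3.53% of all genes. The B-lineage sums, 3464 to 4209 and 2424 to 3299, came mostly from Vpreb1 and Igll1 (means of 1752 and 1165 in untreated marrow). Of 7 natural killer markers 5 were lower, with Eomes (-0.37 ± 0.11), Klrd1 (-0.52 ± 0.09) and Klrc1 (-0.60 ± 0.09) under that limit. Their sums overlapped, at 3539 to 3669 and 2849 to 3588. Prf1 (0.18 ± 0.15) and Nkg7 (0.09 ± 0.12) were the 2 higher. The T-cell sums, 1210 to 1592 and 1768 to 2038, came mostly from Cd3d (0.46 ± 0.14), with Cd3e and Cd4 near the floor in both groups. Sums overlapped for neutrophils too (72070 to 76950 and 74070 to 76510), for erythroid cells (26450 to 31780 and 28890 to 30690) and for skeletal muscle (233 to 252 and 223 to 278, with Ckm at 0.38 ± 0.14). The part of cell composition in the values of the interferon-stimulated genes was not tested.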

How the data were processed

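The authors deposited a single table of linear intensity values for 45037 probe sets on 6 arrays; per the labels' protocols, total RNA was amplified to biotin-labelled cRNA. How the deposited values were summarised and normalized is not stated in the labels or the table. No scanner files were used here, so background per array is unknown; the number of arrays and the spread between mice limit the precision.

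Groups came from the sample titles. Intensities became log2(intensity + 16) with no further scaling. Treated and untreated arrays were compared by limma's moderated test, two-sided and without covariates (lmFit and eBayes, limma version 3.58.1, R version 4.3.3), with Benjamini-Hochberg adjustment over all probe sets at 0.05. The fit was also run on simulated data with changes larger than any in the list, so it was not tested at the sizes reported here. Genes were named through the platform annotation, and each was represented by its own probe set of highest mean; 932 probe sets with several symbols were unnamed. The interferon-stimulated genes and the other lists were chosen with earlier results of these data known, so lists were described by counts and medians and given no test of their own. All measured members were named; mouse values were given for the 12 with the smallest p, those fitted higher and those whose probe sets differed in sign. Other lists were named at an unadjusted p under 0.05, or by their 2 smallest. Promoters came from RefSeq (GRCm38.p6) for up to 6 members with the smallest p and the motif; 9 members had no window in the table. Alternatives covered the offset, scaling, dim probe sets, variance model, array weights, mouse number as a block, the probe-set rule and each mouse left out.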

Additional observations from a re-analysis of the deposited data

How the results depend on the processing

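Of 511 changes of single genes recomputed under the alternatives, 490 kept their sign, 21 turned and 0 passed the adjusted threshold; 21 genes had none turned. The limma count of probe sets past the threshold was 0 in every setting run, with the smallest adjusted p between 0.0631 (without untreated mouse 1) and 1. Of the 32 genes, 11 were lower at an unadjusted p under 0.05, 6 with an offset of 1 (3.26% of all genes) and 5 to 11 with each mouse left out (2.20% to 5.50%). The median change of -0.22 was -0.14 when each gene's probe sets were averaged and -0.25 to -0.13 with each mouse left out. The count of 8 genes without overlap was 9 to 15 with each mouse left out, where 9.77% to 15.3% of all genes did not overlap. Mouse numbers name different animals, and same-numbered mice deviated together at r of -0.18, 0.09 and 0.04, so they were not taken as pairs; with the number as a replicate block 8 genes were lower at an unadjusted p under 0.05 (3.25% of all genes) and the median was -0.22. Signs turned for Rsad2 (0.14) and Dtx3l (-0.036) when a gene's probe sets were averaged, Dtx3l with quantile normalization (-0.019), Herc6 with array weights (-0.054) and Trim25 with cross-hybridising probe set types left out (0.0068); the cause was not tested. With each mouse left out the changes ran from -0.049 to 0.20 for Stat2, -0.0028 to 0.11 for Irf9, -0.14 to 0.048 for Oas2, -0.046 to 0.15 for Mx2, -0.17 to 0.028 for Rsad2, -0.47 to 0.079 for Bst2, -0.059 to 0.025 for Isg20, -0.040 to 0.15 for Samd9l, -0.19 to 0.25 for Herc6 and -0.031 to 0.054 for Dtx3l. An offset of 64 gave -0.28 for Ifit3 and -0.25 for Oasl2. With dim probe sets left out, Mx2 was not measured.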
